A study of Mus musculus with 8 samples.

Results

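The MHC class II presentation genes encode the molecules that load peptides from the endosomal pathway and show them to CD4+ T cells. They were described here in islets of Tcf1 knock-out mice and of wild type mice. The 9 genes were taken by symbol, current or older, and were chosen with earlier results of these data known. They are the classical chains H2-Aa, H2-Ab1 and H2-Eb1, the invariant chain gene Cd74 and the peptide editors H2-DMa and H2-DMb1. The others are the inhibitor chains of these editors, H2-Oa and H2-Ob, and the regulator gene Ciita. Of the 24965 probe sets on both array types, 12 were annotated to these 9 genes, 11 of 12488 on MG-U74A and 1 of 12477 on MG-U74B.

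Total RNA of pancreatic islets, the endocrine clusters of the pancreas, was hybridised to 2 Affymetrix mouse array types. Each genotype, Tcf1 knock-out and wild type, had 2 replicates on each type, described as biological in the submitters' design text, which makes 8 arrays. No probe set of the targeted gene was used here, so genotype is known from the labels alone. Age, sex, strain, the knock-out allele and the number of mice behind a replicate are not given in the sources used here.

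Classical class II molecules are pairs of an alpha and a beta chain, I-A (H2-Aa with H2-Ab1) and I-E (H2-Ea with H2-Eb1) in the mouse. The invariant chain, Cd74, blocks the groove until the pair reaches the endosome, where cathepsins cut it down, H2-DM exchanges its last fragment for antigen peptides, and H2-O holds H2-DM back. Ciita is the transcriptional co-activator that switches these genes on, constitutively in B cells, dendritic cells and some macrophages, and after interferon gamma in many other cells. Islets hold few such cells in health, and class II on islet macrophages and dendritic cells has been studied in autoimmune diabetes.

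Values are the intensities the authors deposited, linear and in arbitrary units, and some of them lie below 0. Changes are log2 values of the intensity, set to 0 where it was below 0, plus a constant of about 25, as knock-out minus wild type. They come with a standard error and a p adjusted by Benjamini-Hochberg over all probe sets tested on the array type (limma, threshold 0.05). The constant shrinks the log2 change of a weak gene below that of its plain ratio. Probe sets with a mean under 62.5 over the 4 arrays of a type were not tested. That left 8 of the 11 member probe sets on MG-U74A and not the 1 on MG-U74B. With 2 arrays a genotype, 0.33 is the smallest p of an exact permutation test, and the number of arrays limits the precision.

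The arrays showed islet RNA by their markers, and acinar RNA beside it. The summed intensity of 8 islet genes, among them Ins2, Iapp and Gcg, was 86485 and 78309 on the knock-out arrays of MG-U74A, against 120876 and 121543 on the wild type arrays. That of 5 acinar genes was 4679 and 4207, against 34938 and 35167. The acinar signal thus moved with genotype, and its part in the results below was not tested. The Gapdh 3' to 5' ratio, which is higher where the labelled RNA is less complete, was 0.949 and 0.937 on the knock-out arrays of MG-U74A and 3.15 and 3.22 on the wild type arrays. The same ratio for actin was 1.16 and 1.12 in knock-out and 1.47 and 1.45 in wild type, a smaller gap. Both ratios therefore moved with genotype beside every result below, and their part in them was not tested. In islet RNA more class II cells and more class II RNA per cell cannot be told apart. Of all probe sets tested on MG-U74A, 52.9% passed the threshold, 23.9% higher in knock-out and 29.0% lower, and the median change was -0.09.

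On MG-U74A 7 of the 8 tested member probe sets were higher in knock-out islets and passed the threshold, where 23.9% of all tested probe sets did. None of the 8 was lower past the threshold, and none at an unadjusted p under 0.05 (limma). The H2-DMa probe set was tested only because of its knock-out level. Of the 7 others, which had a wild type mean above the limit, 6 rose. All 3 classical chains, the invariant chain, both H2-DM chains and H2-Ob rose, while H2-Oa did not pass and Ciita was too weak to test. For each of the 7 that rose, both knock-out arrays lay above both wild type arrays, as they did for 35.2% of all tested probe sets. The median change of the 8 was 1.59.

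**Figure D1:**
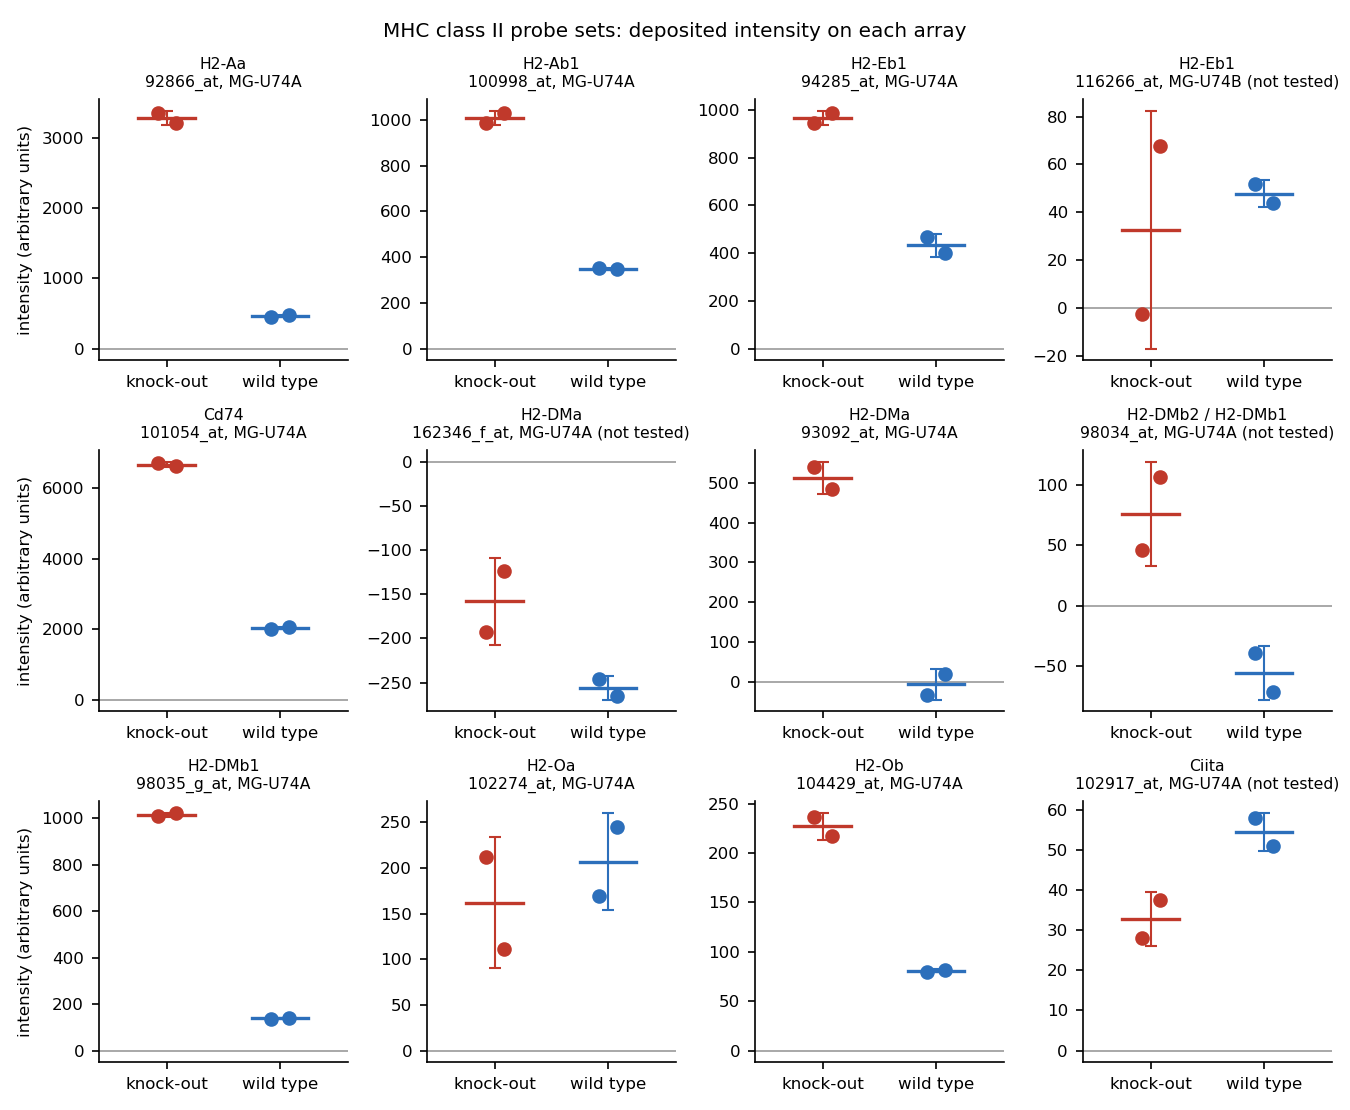
Deposited intensity of the 12 member probe sets on each array, with a panel per probe set and its own linear axis. Points are arrays, knock-out left and wild type right, horizontal bars are means and whiskers are SD (n = 2 each). The genotypes overlap for H2-Oa and for H2-Eb1 on MG-U74B, and Ciita is at 28.1 and 37.5 in knock-out against 57.9 and 51.1 in wild type.

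Among the classical chains, H2-Aa, the alpha chain of I-A, moved most. Its intensity was 3353.0 and 3206.5 on the knock-out arrays and 450.3 and 470.9 on the wild type arrays. The genotypes are far apart and each varies little, with a 7.12-fold higher mean in knock-out. The log2 change was 2.77 ± 0.05 (SE, adjusted p = 9.39e-05 by limma), and 1.94% of tested probe sets rose more.

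H2-Ab1, the beta chain that pairs with H2-Aa, was 987.4 and 1031.5 on the knock-out arrays and 350.5 and 347.1 on the wild type arrays. The knock-out mean was 2.89-fold higher, and the log2 change was 1.47 ± 0.05 (SE, adjusted p = 2.71e-04). Both chains of the heterodimer thus rose. Within an array, the log2 value of H2-Ab1 minus that of H2-Aa was -1.74 and -1.61 in knock-out, against -0.34 and -0.41 in wild type. That is a difference between genotypes of -1.30 ± 0.07 (SE), with no overlap of the arrays and p = 0.33 by the exact permutation test, the smallest it can give here.

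H2-Eb1, the beta chain of I-E, was 947.2 and 988.2 on the knock-out arrays of MG-U74A and 467.2 and 398.5 on the wild type arrays. Its 2.24-fold higher knock-out mean was the smallest rise of the 3 classical chains, at 1.12 ± 0.09 (SE, adjusted p = 0.00154). A second H2-Eb1 probe set, the only member on MG-U74B, was at -2.5 and 67.9 in knock-out and at 51.7 and 43.7 in wild type. Those values are weak and overlap. On that array type both knock-out arrays lay above both wild type arrays for 36.2% of tested probe sets and below them for 28.8%. That probe set gives no direction, and without the limit on low values its adjusted p was 0.763. H2-Ea, the alpha chain of I-E, was also below the limit for testing, at 61.0 and 58.5 in knock-out and 4.4 and 8.9 in wild type, where the genotypes do not overlap. H2-Eb2, a related beta chain gene, was weaker still, at 14.2 and 30.6 in knock-out and below 0 on both wild type arrays.

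Cd74, the invariant chain, had the brightest probe set of the members, above 98.9% of all probe sets of MG-U74A by its mean. It was 6725.4 and 6614.6 on the knock-out arrays and 2008.5 and 2049.7 on the wild type arrays, a 3.29-fold higher mean in knock-out. Its spread was small, and its log2 change was 1.70 ± 0.03 (SE, adjusted p = 9.54e-05). Cd74 minus H2-Aa within an array was 1.00 and 1.04 in knock-out and 2.10 and 2.06 in wild type, a difference of -1.06 ± 0.03 (SE, p = 0.33, exact permutation test).

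H2-DM is the editor that releases the invariant chain fragment from the groove, and both of its chains rose. H2-DMa was 540.4 and 483.2 on the knock-out arrays, while the wild type arrays listed it at -32.7 and 20.7, around 0. Its log2 change of 3.99 ± 0.34 (SE, adjusted p = 0.00167) depends on the constant added, and was 4.68 with a constant of 5% of the trimmed mean of an array and 3.24 with one of 20%, where 10% was used. H2-DMb1 was 1007.8 and 1020.2 on the knock-out arrays and 136.5 and 140.8 on the wild type arrays. With a wild type level on both arrays it gives a ratio, 7.31-fold higher in knock-out, and a log2 change of 2.67 ± 0.07 (SE, adjusted p = 1.19e-04).

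The remaining H2-DM probe sets carried less signal. A second probe set of H2-DMa was below 0 on all 4 arrays and gives no change. A probe set annotated to both H2-DMb1 and its near copy H2-DMb2 was at 45.6 and 106.2 in knock-out and below 0 on both wild type arrays, too weak to test. H2-DMb2 also has a probe set of its own, at 286.2 and 387.3 in knock-out and at -13.5 and -1.3 in wild type. It was tested only because of its knock-out level, and with both wild type values set to 0 the size of its log2 change is fixed by the constant. The copies are so alike that their signals may not be separate.

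H2-O, the inhibitor of H2-DM known mainly from B cells and some dendritic cells and thymic epithelium, gave unlike values in its alpha and beta chains, a difference that was not tested. H2-Ob, its beta chain, was 236.9 and 217.7 on the knock-out arrays and 79.7 and 81.8 on the wild type arrays. It was weak but clear of its wild type level, 2.81-fold higher, with a log2 change of 1.25 ± 0.13 (SE, adjusted p = 0.00281). H2-Oa, its alpha chain, was 212.4 and 111.6 on the knock-out arrays and 169.2 and 244.7 on the wild type arrays. Those ranges overlap, and the log2 change was -0.35 ± 0.34 (SE, adjusted p = 0.439), with a 95% interval of -1.28 to 0.59. That interval holds both a fall and a small rise, and the sign of the estimate rests on knock-out replicate 2, without which it was 0.053.

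Set against its own inhibitor chain on the same array, the editor gave a larger difference in knock-out. H2-DMb1 minus H2-Ob was 1.98 and 2.11 in knock-out and 0.63 and 0.63 in wild type, a difference of 1.41 ± 0.06 (SE). H2-DMa minus H2-Oa was 1.25 and 1.90 in knock-out and -2.96 and -2.56 in wild type, a difference of 4.33 ± 0.38 (SE) whose wild type side rests on an H2-DMa value near 0. The arrays did not overlap in either case, and each exact permutation p was 0.33, as it was for all 7 such differences computed and after adjustment over them. These are changes of a difference, not levels of one chain against another, since probe sets differ in their brightness per transcript.

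**Figure D2:**
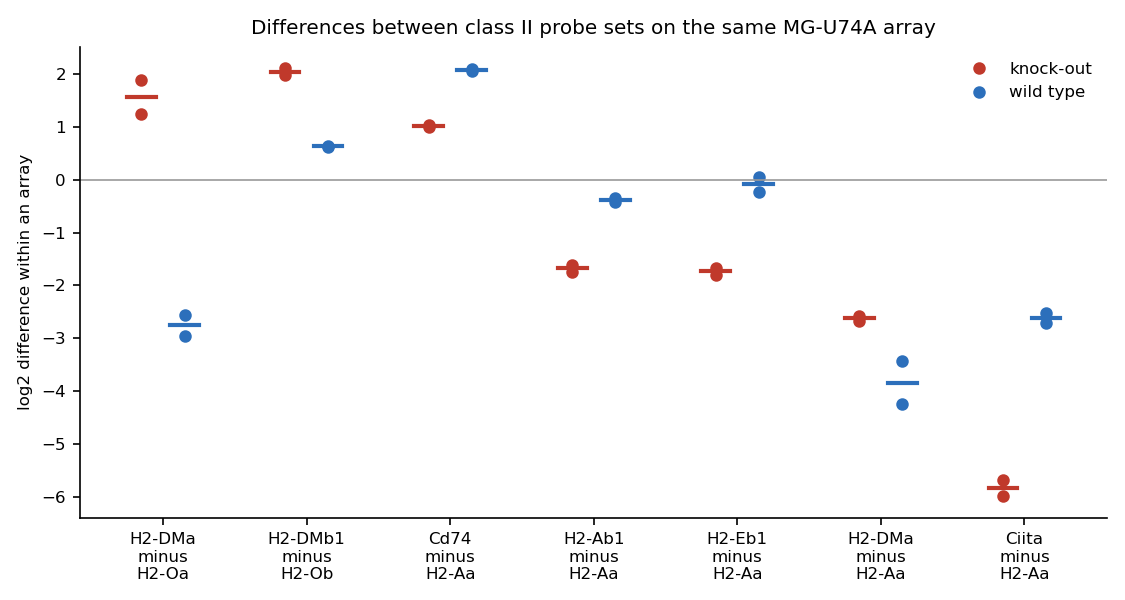
Log2 value of one member's probe set minus that of another on the same MG-U74A array, for 7 pairs. Points are arrays and bars are means, knock-out left and wild type right. H2-DM minus H2-O is higher in knock-out for both chain types, while H2-Ab1, H2-Eb1 and Cd74 minus H2-Aa are lower.

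Ciita, the co-activator needed for class II transcription, was too weak to test. Its only probe set was at 28.1 and 37.5 on the knock-out arrays and at 57.9 and 51.1 on the wild type arrays, all under the mean required for a test. Both knock-out values lay below both wild type values, as they did for 43.9% of all tested probe sets, and the log2 difference of -0.46 had an adjusted p of 0.147 (limma) when the limit on low values was dropped. This probe set showed no rise, and at such intensities a fall or a small rise of Ciita could not be tested.

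**Figure D3:**
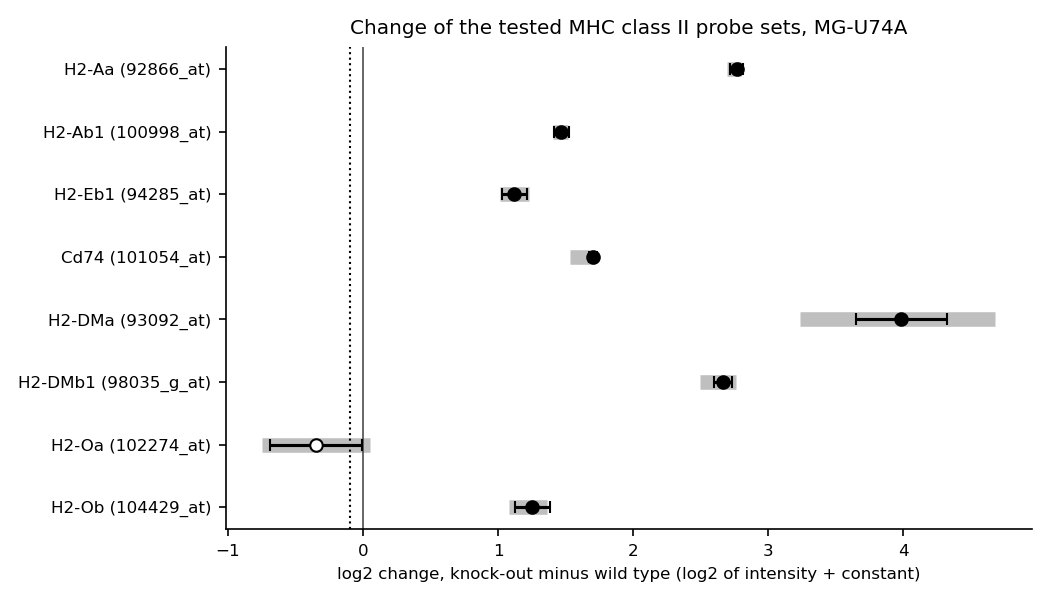
Log2 change of the 8 tested member probe sets on MG-U74A (dots, whiskers are SE), filled where the adjusted p passed the threshold and open where not. Grey bands span the values under the 12 other settings, and the dotted line is the median change of all tested probe sets, -0.09. The H2-Oa band crosses 0, and the other 7 stay above 1.

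The promoters of the members are shown because the class II genes share a known regulatory module, the X and Y boxes, which the RFX and NF-Y complexes bind and through which Ciita acts. RefSeq windows of GRCm38.p6, from 250 bases before to 50 after a gene's start, were held for 6 members. Cd74, H2-Ab1 and Ciita are named only. The X box was searched as CNNGNAAC and the Y box as TGATTGG, on both strands, without overlap, with the Y box 15 to 30 bases after the X box. These letters were chosen after reading the members' windows. In the 5 windows below, written 5′ to 3′ on the gene's strand, capitals mark the X box and then the Y box.
H2-Aa (chr17:34287774-34288073, minus strand): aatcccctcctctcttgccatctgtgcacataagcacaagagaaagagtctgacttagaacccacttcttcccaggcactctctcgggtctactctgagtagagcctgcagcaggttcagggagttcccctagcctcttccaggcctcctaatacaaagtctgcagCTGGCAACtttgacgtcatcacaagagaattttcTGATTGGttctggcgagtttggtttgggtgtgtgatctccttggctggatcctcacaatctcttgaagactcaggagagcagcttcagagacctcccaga
H2-Eb1 (chr17:34305617-34305916, plus strand): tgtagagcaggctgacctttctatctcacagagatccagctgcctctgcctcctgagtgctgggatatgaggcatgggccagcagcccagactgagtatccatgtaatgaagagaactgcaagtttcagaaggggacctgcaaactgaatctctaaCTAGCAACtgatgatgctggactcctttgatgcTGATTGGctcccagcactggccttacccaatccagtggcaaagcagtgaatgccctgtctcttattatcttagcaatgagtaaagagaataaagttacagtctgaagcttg
H2-DMb1 (chr17:34152941-34153240, plus strand): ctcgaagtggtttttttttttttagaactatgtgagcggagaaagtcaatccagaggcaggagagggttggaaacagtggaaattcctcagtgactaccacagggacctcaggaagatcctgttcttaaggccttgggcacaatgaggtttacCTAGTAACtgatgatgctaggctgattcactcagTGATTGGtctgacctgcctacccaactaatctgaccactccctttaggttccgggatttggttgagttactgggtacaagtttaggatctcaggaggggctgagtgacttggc
H2-Ob (chr17:34238655-34238954, plus strand): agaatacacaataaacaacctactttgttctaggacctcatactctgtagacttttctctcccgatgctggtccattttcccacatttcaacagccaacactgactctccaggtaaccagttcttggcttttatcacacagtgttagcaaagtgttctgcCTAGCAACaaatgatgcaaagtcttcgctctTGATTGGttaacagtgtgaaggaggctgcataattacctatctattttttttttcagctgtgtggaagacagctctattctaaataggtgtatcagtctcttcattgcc
H2-Oa (chr17:34092129-34092428, plus strand): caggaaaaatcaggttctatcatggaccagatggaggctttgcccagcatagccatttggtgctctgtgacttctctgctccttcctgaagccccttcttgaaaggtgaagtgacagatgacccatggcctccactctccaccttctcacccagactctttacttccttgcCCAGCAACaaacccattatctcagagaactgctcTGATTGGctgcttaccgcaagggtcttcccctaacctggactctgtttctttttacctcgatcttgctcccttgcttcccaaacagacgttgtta

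The module stood at a like place in all 5 windows. The X box began 79 to 97 bases before the start and the gap to the Y box was 23 to 26 bases. H2-Eb1 and H2-Ob had the same X letters, CTAGCAAC, and those of H2-DMb1 (CTAGTAAC), H2-Aa (CTGGCAAC) and H2-Oa (CCAGCAAC) differed from them. Over all 32851 windows of this length, 39.1% held the X letters, 7.82% the Y letters and 0.119% (39 windows) both in this order and spacing. Neither of the 2 windows listed for H2-DMa held the pair, as both held the X letters but not the exact Y letters. Other forms of the Y box were not searched, so a module with other letters may be present there. The module was present in H2-Oa, which did not pass the test, as well as in H2-Aa, H2-Eb1, H2-DMb1 and H2-Ob, which rose.

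All members but Cd74 and Ciita lie in the class II region of chromosome 17, among other genes of antigen presentation. In the order of GRCm38.p6 from H2-Oa to H2-Eb2, the single-gene probe sets of MG-U74A also covered Brd2, H2-DMb2, Psmb9, Tap1, Psmb8, Tap2 and H2-Eb2. Of their 6 tested probe sets 5 rose, where 23.9% of all tested did. Without H2-DMb2 and Brd2, which were tested only because of the level of one genotype, 4 of 4 rose. Psmb9, an immunoproteasome subunit, rose by 2.98 ± 0.14 and its partner Psmb8 by 1.04 ± 0.08 (SE, adjusted p = 4.23e-04 and 0.00128). Tap1 and Tap2, the peptide pump for class I, rose by 0.92 ± 0.05 and 1.16 ± 0.11 on MG-U74A. Another Tap1 probe set of that type was too weak to test and overlapped, at 26.7 and -33.6 in knock-out and 83.7 and -2.2 in wild type, and 1 on MG-U74B did not pass (0.54 ± 0.35, adjusted p = 0.326). Brd2, a bromodomain protein gene between H2-Oa and H2-DMa, was at 27.3 and 94.3 in knock-out and at 94.6 and 433.8 in wild type and did not pass (adjusted p = 0.175). It passed without wild type replicate 1. This stretch was looked at after the members' values were known.

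**Figure D4:**
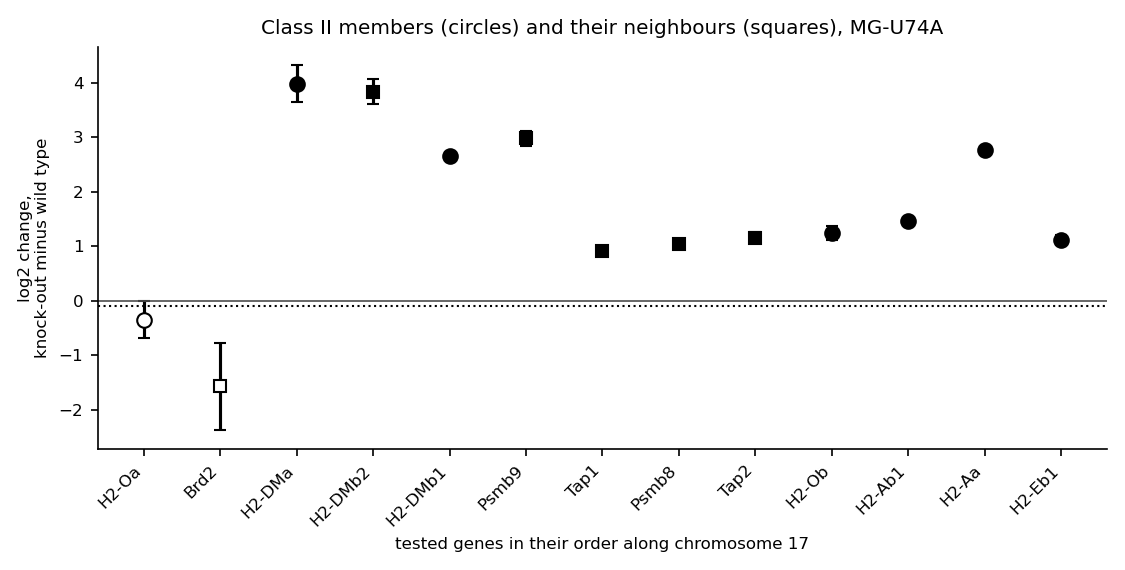
Log2 change with SE of each tested single-gene probe set of MG-U74A in the class II region, in gene order and not to scale. Circles are members and squares are other genes, filled where the threshold was passed. H2-Oa and Brd2 at one end are open and below 0, and all others are filled and above 0.

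Most genes that prepare peptides for class II were higher. Of 9 antigen processing genes tested on MG-U74A, 7 rose and 2 fell, where 23.9% and 29.0% of all tested probe sets did. The median change of the 9 was 0.94. Ctss, the cathepsin that finishes the cleavage of the invariant chain in B cells and dendritic cells, was 3012.1 and 2907.2 on the knock-out arrays and 1321.1 and 1342.4 on the wild type arrays (1.14 ± 0.04, SE, adjusted p = 2.26e-04). Ctsl, which does so in thymic epithelium, was one of the 2 that fell, with 2086.9 and 1759.2 in knock-out and 4110.6 and 4120.5 in wild type (-1.09 ± 0.09, adjusted p = 0.00154). The other was the cathepsin inhibitor Cst3 (-0.22 ± 0.03, adjusted p = 0.00681), which no longer passed when either wild type replicate was left out (adjusted p up to 0.108 over the other settings). The brightest of those that rose, Ctsb, changed by 0.46 ± 0.03 (adjusted p = 9.73e-04). Ifi30, the thiol reductase of the class II pathway, rose by 1.50 ± 0.12 on MG-U74A. On MG-U74B, where 8.59% of tested probe sets rose, its change was 2.03 ± 0.33 (adjusted p = 0.0220), a call lost when any 1 of the 4 arrays was left out (adjusted p up to 0.103 over the other settings).

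The factors that bind the X and Y boxes showed no common direction among those that passed. On MG-U74A Nfya rose by 0.71 ± 0.15 and Nfyc fell by 0.33 ± 0.05, and both calls ended without wild type replicate 1 or without wild type replicate 2 (adjusted p up to 0.0925 and 0.0885 over the other settings). Nfyb, the third subunit of NF-Y, was at -0.25 ± 0.10 and did not pass (adjusted p = 0.107), and neither did Creb1 on that type. Rfxank (1.75 ± 1.04) had an adjusted p of 0.228, and of 0.00706 without wild type replicate 2, which read 168.8 against -19.8 for wild type replicate 1. Rfx5, Rfxap, Creb1 and Nfyb did not pass on MG-U74B, where Rfx5 was at 0.30 ± 0.16 (adjusted p = 0.256), Rfxap at -0.35 ± 0.18 (0.236) and Creb1 at -0.27 ± 0.16 (0.298).

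In the path from interferon gamma to Ciita, the 5 genes tested on MG-U74A had a median of 0.81. Of them 4 rose, where 23.9% of all tested probe sets did. The count was 3 without wild type replicate 1, 2 without wild type replicate 2 and 2 without knock-out replicate 2. One of the 4, Ifngr2, was tested only because of its knock-out level. Another, the kinase gene Jak2, rose by 0.81 ± 0.10 (SE, adjusted p = 0.00431 by limma). Irf1, a factor that acts on a Ciita promoter, was 2381.6 and 2223.1 in knock-out and 1055.1 and 1051.3 in wild type, with a change of 1.11 ± 0.05 (SE, adjusted p = 3.62e-04) that passed under every other setting tried. Ifngr1, a receptor chain, changed by 0.74 ± 0.15 (adjusted p = 0.0190) and lost its call without either wild type replicate or without knock-out replicate 2 (adjusted p up to 0.0910 over the other settings). The kinase gene Jak1 was at 0.09 ± 0.09 and did not pass (adjusted p = 0.459), but passed without knock-out replicate 1 (0.0437). The other receptor chain, Ifngr2, was at 1.30 ± 0.35 on MG-U74A (adjusted p = 0.0407), lost without wild type replicate 2 or either knock-out replicate (adjusted p up to 0.134 over the other settings). It was at 0.79 ± 0.11 on MG-U74B (adjusted p = 0.0148), a call lost without either wild type replicate (adjusted p up to 0.121 over the other settings).

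Of 5 genes of co-stimulation and adhesion tested on MG-U74A, 4 rose, with a median of 1.63, and 2 did without knock-out replicate 1. One of the 4, Cd80, was tested only because of its knock-out level. Of all probe sets tested on MG-U74A, 23.9% rose. Icam1, the adhesion molecule of the T cell contact, rose by 1.93 ± 0.11 (adjusted p = 6.74e-04). Cd83, a surface protein of mature dendritic cells that keeps class II on the surface, was 440.4 and 426.0 in knock-out and 119.5 and 76.4 in wild type (1.92 ± 0.20, adjusted p = 0.00300). Cd86 was at 0.41 ± 0.19 and did not pass there (adjusted p = 0.145, and 0.0149 without knock-out replicate 2), nor on MG-U74B (2.22 ± 0.78, adjusted p = 0.120). Marchf1 and Marchf8 encode ubiquitin ligases that take class II off the surface. Marchf1 was too weak to test on MG-U74B, at 40.3 and 41.6 in knock-out and -8.9 and 21.3 in wild type. Marchf8 was at 502.8 and 667.8 in knock-out and 1044.1 and 1283.7 in wild type on MG-U74B (-0.97 ± 0.20, adjusted p = 0.0360). There 8.87% of tested probe sets fell, and this call was lost when any 1 of the 4 arrays was left out (adjusted p up to 0.188 over the other settings).

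Class I genes, which present peptides of the cytosol on most cells, moved in both directions. Of 9 tested on MG-U74A, 4 rose and 2 fell, where 23.9% and 29.0% of all tested probe sets did. The median of the 9 was 0.15. With quantile normalization 3 rose and 4 fell, as H2-K1 lost its call and H2-D1 and Tapbp, a helper of peptide loading, fell. B2m, the light chain of class I, rose by 0.67 ± 0.03 (adjusted p = 4.54e-04). The heavy chain gene H2-K1 was 13537.9 and 12628.7 in knock-out and 11789.9 and 11715.5 in wild type. That is a change of 0.15 ± 0.04 (adjusted p = 0.0474), lost under 6 of 12 other settings and turned in sign by 1 of them, quantile normalization. H2-D1 was at 0.11 ± 0.05 and did not pass (adjusted p = 0.124), though it passed without either knock-out replicate and, with its sign turned, after quantile normalization (lowest adjusted p 0.00614). Pdia3 (-1.07 ± 0.04) and Canx (-0.65 ± 0.08), folding helpers that serve most secreted proteins, fell. No test was made of the difference between the class I and class II lists.

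Cells that can carry class II were followed by lists of their markers on the same arrays. On MG-U74A 23.9% of all tested probe sets rose. The members' summed intensity, with 1 probe set a gene, was 14039 and 13711 on the knock-out arrays and 3720 and 3805 on the wild type arrays, a ratio of 3.69. The macrophage list summed to 8238 and 8439 in knock-out and 3141 and 2950 in wild type, a ratio of 2.74, and all 8 of its tested genes rose (7 without either wild type replicate). The B cell list summed to 5788 and 5834 in knock-out and 2246 and 2277 in wild type, a ratio of 2.57, and 5 of 7 tested genes rose. One of these 5, Cd79a, was tested only because of its knock-out level, and 4 of the 6 others rose. Another, Blk, lost its call without wild type replicate 2 or knock-out replicate 1. It also did so without the limit on low values, where 4 of 9 genes rose. Ms4a1, the brightest probe set in the B cell sum, was 1065.8 and 1106.3 in knock-out and 1004.6 and 1046.6 in wild type, and did not pass. The dendritic cell list summed to 4458 and 4534 in knock-out and 2886 and 2972 in wild type, a ratio of 1.54, with 3 of 6 that rose and 1 without wild type replicate 1. Ptprc (CD45), which marks all leucocytes, was 519.0 and 564.8 in knock-out and 64.3 and 48.6 in wild type, where its mean was under the limit for testing. A sum leans on its brightest probe sets and is no count of cells. Fscn1, the brightest of the dendritic cell list, was 2635.0 and 2882.0 in knock-out and 2073.4 and 2128.6 in wild type. The part of these cells in the class II values was not tested.

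Single markers within those lists differed. Lyz2 of macrophages rose by 1.90 ± 0.04, while Adgre1, a defining macrophage marker, was near 0 on all 4 arrays, between -3.2 and 17.1. Cd79a of B cells was 1356.2 and 1340.1 in knock-out and below 0 on both wild type arrays, whereas Pax5 (0.01 ± 0.08, adjusted p = 0.891) and, on MG-U74A, Ms4a1 (0.08 ± 0.05, adjusted p = 0.225) did not pass. On MG-U74B Ms4a1 was at 1.33 ± 0.27 (adjusted p = 0.0360), lost when any 1 of the 4 arrays was left out (adjusted p up to 0.142 over the other settings). Ccr7, carried by migrating dendritic cells and by lymphocytes, rose by 2.27 ± 0.08, and Itgax, which encodes CD11c, did not pass (1.02 ± 0.43, adjusted p = 0.120, and 0.0211 without knock-out replicate 2). Of 4 T cell genes tested 1 passed, Cd3d, at 204.7 and 216.9 in knock-out and 22.9 and -0.9 in wild type. It was tested only because of its knock-out level, and none of the other 3 passed or did so at an unadjusted p under 0.05 (limma). The T cell sum was 1030 and 1117 in knock-out and 774 and 714 in wild type, and Cd3e was below 0 on all arrays of MG-U74A. Of all probe sets tested on that type, 23.9% rose. Genes of endothelial cells, which can also carry class II, rose in 5 of 7 cases, 1 of them (Icam2) tested only because of its knock-out level, and in 2 without either wild type replicate, with sums of 2469 and 2432 in knock-out and 1966 and 1986 in wild type, while Emcn fell by 0.65 ± 0.10.

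Markers of the pancreatic cells themselves were lower on MG-U74A, where 29.0% of all tested probe sets fell. All 8 islet genes tested fell (6 without wild type replicate 1, and 4 of 7 tested without wild type replicate 2). Slc2a2 and Pdx1 were tested only because of their wild type level, and the fall of Ins2 was lost with quantile normalization. The 5 acinar genes summed to 4679 and 4207 in knock-out and 34938 and 35167 in wild type, and all 5 fell, 1 of them (Clps) tested only because of its wild type level.

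**Figure D5:**
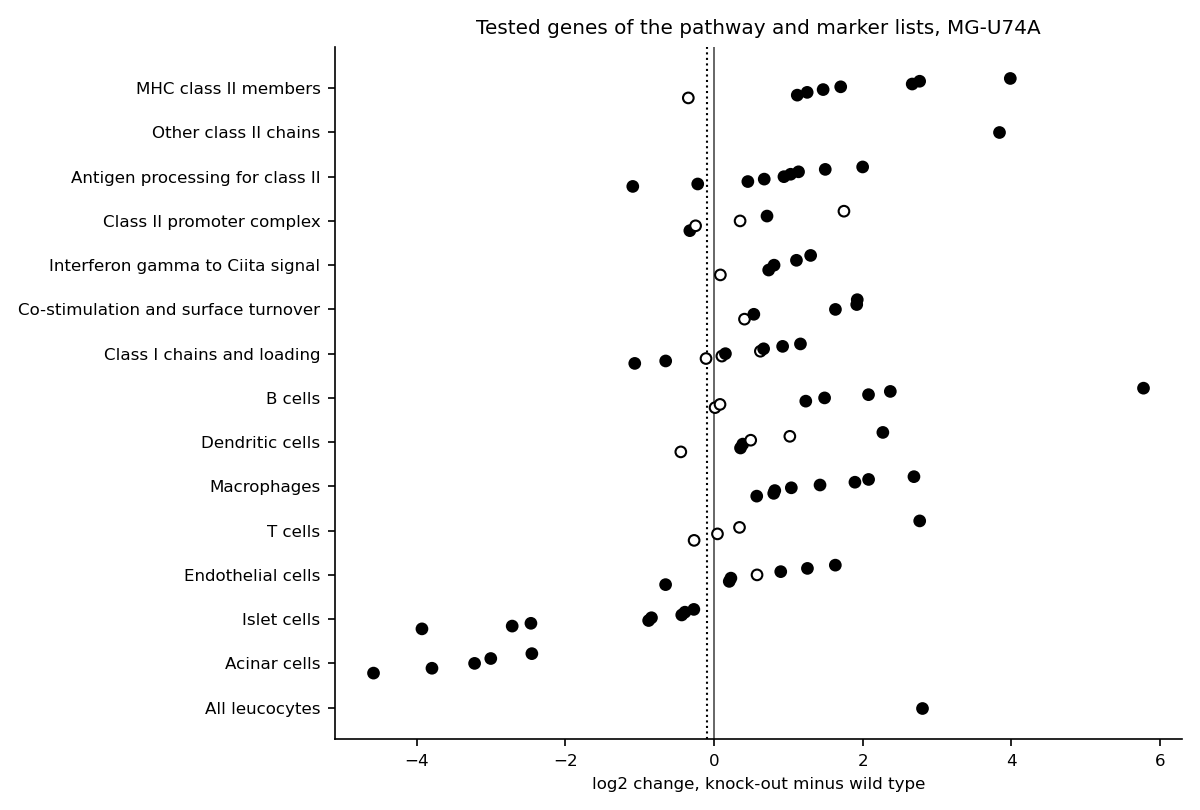
Log2 change of each tested gene in the member list, the pathway lists and the cell type marker lists on MG-U74A, 1 dot a gene, filled where it passed the threshold. The dotted line is the median of all tested probe sets. Member dots reach from -0.35 to 3.99, macrophage genes from 0.57 to 2.69, and all islet and acinar dots lie below 0.

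By distance over the 4 MG-U74A arrays, the non-member genes whose log2 pattern was most like that of H2-Aa were Cited1, S100a8, Crip1, Gimap4 and Gbp2. Their root-mean-square distances from the centred H2-Aa values were 0.029, 0.038, 0.047, 0.054 and 0.054 log2 units. Cited1 was listed below 0 on both wild type arrays, so its place rests on the constant added. Among the members H2-DMb1 was closest, at 0.058, and Cd74 (0.53) and H2-Ab1 (0.65) were farther off. With 4 arrays in 2 genotypes this likeness is little more than a like size of change.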

How the data were processed

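Total RNA of islets was measured on 8 arrays, 2 replicates of each genotype on each of MG-U74A and MG-U74B. Each probe set has a single deposited intensity, and the authors' scaling, read from the values, brought arrays to a mean near 250.2 on MG-U74A and 250.1 on MG-U74B without the highest and lowest 2%. The sources used here do not name the software. An array held 18.4% to 26.7% of values below 0.

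Each array was multiplied by 1 factor to the common trimmed mean (under 0.01% change). Values below 0 were set to 0, 10% of that mean was added, and log2 was taken. Probe sets with a mean under 25% of it and the 66 controls of each type were not tested. On MG-U74A 7516 probe sets were tested, and 7861 were on MG-U74B. Knock-out was compared with wild type per type with lmFit and eBayes with a variance trend (limma 3.58.1, R 4.3.3), two-sided, without a replicate block, with Benjamini-Hochberg adjustment. The p-values reflect how far these arrays spread, in part perhaps for technical reasons. Same-numbered replicates did not deviate together (r = 0.024 and 0.032 across probe sets). Whether the samples were paired in their preparation cannot be told from this.

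Symbols came from the array annotation and were brought to GRCm38.p6 names through gene IDs, which named 10839 of 10855 single-symbol probe sets on MG-U74A and 10572 of 10603 on MG-U74B. A list gene is shown by its single-symbol probe set with the highest mean. Values are given for every member, for the 3 brightest tested genes of a pathway list and for those against its main direction. The 5 genes nearest to H2-Aa are given with their distances. Marker lists are given by sums and counts, and the single markers shown from them did not follow this brightness rule. Other genes with values (Ctss, Ifi30, H2-Ea, H2-Eb2, H2-DMb2, Rfxank, Ifngr2, Jak2, Marchf1, single markers, Brd2, Psmb9, Psmb8, Tap1, Tap2) were named after values were seen. The members and lists were chosen with earlier results of these data known. The procedure was tested on simulated data. Shifts by 1 log2 unit were detected in 41.8% of simulated cases on MG-U74A, but in only 2.6% on MG-U74B. For shifts by 2 log2 units these shares were 68.4% and 23.8%. A probe set that did not pass, above all on MG-U74B, may therefore still have changed by such amounts. Other constants, filters and normalizations, no variance trend, a replicate block and leaving out each array were tried.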

Additional observations from a re-analysis of the deposited data

How the results depend on the processing

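The number of MG-U74A member probe sets that rose was 7, and the number that fell 0, under all 12 other settings, by limma. H2-Aa, H2-Ab1, H2-Eb1, Cd74, H2-DMa, H2-DMb1 and H2-Ob passed the threshold in each of them, with adjusted p of at most 0.0236 and changes between 1.01 and 4.68. H2-Oa passed in none, and its value, -0.35, lay between -0.74 and 0.053 when an array was left out, above 0 without knock-out replicate 2. The count of changed probe sets was 3974 on MG-U74A and between 2439 and 4209 when an array was left out. On MG-U74B it was 1372, and 764 without a filter, 638 without a variance trend and between 1 and 934 when an array was left out, and the value 1 came without either wild type replicate. With the replicate block the counts were 3628 and 1207, and no member call changed. Among the other named lists and the class II region it ended the MG-U74A calls of Ifngr2 (interferon genes that rose 3, not 4), H2-K1, Batf3, Cdh5 and Kdr, and Brd2 passed. When an array was left out its genotype had 1 sample, assumed to vary like the other genotype. The low signal of Ciita, of H2-Ea and of the second probe sets of H2-DMa and H2-Eb1 limits what can be said of them.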

Other observations

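The X and Y box letters, in the order and spacing found in the class II promoters, also stood in the windows of 31 other genes, 25 of which were on the arrays. The letters had been chosen on the members' windows, so the members are no comparison. On MG-U74A 1 of 9 tested probe sets rose and 5 fell, where 23.9% and 29.0% of all tested did. On MG-U74B 4 of 10 rose and 0 fell (0 also at an unadjusted p under 0.05, limma), where 8.59% and 8.87% of all tested did. Those that rose were 1 of 2 probe sets of Stat2, a factor of interferon signalling, by 0.79 ± 0.15 (SE, adjusted p = 0.0316 by limma), Sf3b2 by 0.35 ± 0.08, Eef1aknmt by 0.98 ± 0.19 and both probe sets of Stimate by 0.84 ± 0.18 and 1.10 ± 0.19. Those that fell were Aars, Fggy, Mark3, Stard7 and 1 of 3 probe sets of Plk1, between -0.50 and -1.08. The calls of Stat2, Eef1aknmt and Stimate come from MG-U74B, where leaving out either wild type replicate left 1 call in all. A match of letters is a description and no binding was measured.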
